A study of Mus musculus with 18 samples.

Results

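Resident macrophages of the mouse dorsal dermis were described from single-cell RNA-seq counts of 18 libraries, 1 per mouse. They were chosen by transcripts of at least 2 of the genes Lyve1, Fcna, Cd209f and Timd4. Of the cells chosen, 93.9% held Lyve1 and 66% held Timd4. Among 23990 deposited barcodes, 16877 cells passed the filter of the study (850 to 7800 detected genes and under 13% mitochondrial unique molecular identifiers, UMIs), and 1889 of these held at least 3 UMIs of each of C1qa, C1qb and C1qc and none of Pdgfra. These 1889 cells are called C1q-positive. The members were the 1334 C1q-positive cells with a UMI of at least 2 of the 4 genes Lyve1, Fcna, Cd209f and Timd4, called gate genes here. They were therefore chosen by measured values, and the 8 genes of the rule are described below without a test between classes. The comparison class held the 366 C1q-positive cells with none of the gate genes, and 189 cells with exactly 1 gate gene belonged to neither class.

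All mice were wild-type C57BL/6J males of about 54 days, kept under a light-dark cycle of 12 h light and 12 h dark. Dermal cells were collected at zeitgeber time (ZT, hours after lights on) 2, 6, 10, 14, 18 and 22 on 3 days, so each ZT has 3 mice and the replicate number is the day of collection. No treatment, transgene or mutant was used, and the cells were released from 1 punch of skin with collagenase and sorted for viability. Libraries held between 4850221 and 40827442 UMIs and between 17 and 222 members, with a median of 70. The summed counts of the members ranged from 232938 UMIs (ZT18 replicate 1) to 2908701 (ZT22 replicate 1), so the former gives the least precise levels.

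Tissue macrophages are long-lived phagocytes that take up dead cells, proteins and particles, and C1q, which they secrete, is the recognition unit of the classical complement pathway. In many organs a subset with LYVE1, folate receptor beta and TIM-4 lies along vessels and maintains itself locally, while macrophages with CCR2 and high MHC class II are largely renewed from blood monocytes. The molecular clock is a transcriptional loop in which BMAL1 (Arntl) and CLOCK drive Per, Cry, Nr1d1, Nr1d2, Dbp and Tef through E-box motifs, and the products of several of these genes feed back on the loop.

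The 4 gate genes lie at separate places on GRCm38, the build of the mm10 alignment, whereas C1qa, C1qb and C1qc are neighbours on chromosome 4. Lyve1, a hyaluronan receptor also known from lymphatic endothelium, is at chr7:110850607-110863239 on the minus strand. Fcna, a ficolin that recognises sugars on microbes, is at chr2:25624666-25628030 on the minus strand. Cd209f, a C-type lectin of the DC-SIGN family, is at chr8:4102787-4105835 on the minus strand, and Timd4, which encodes the phosphatidylserine receptor TIM-4, is at chr11:46810800-46844332 on the plus strand. The Cd209 genes are similar copies, so reads may have been split between them and the values of single Cd209 genes are uncertain.

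Some libraries stand apart from the rest. A barcode was found in more than 1 library in 164 cases. ZT6 replicate 2 and ZT10 replicate 3 shared 89 of them, and every other pair shared at most 4. In ZT6 replicate 2 the shared barcodes held 501 to 1100 UMIs each, a median of 1.84% of the UMIs under the same barcode in ZT10 replicate 3, and none of the 89 passed the filter. All 89 passed in ZT10 replicate 3, where 1 was a member. ZT2 replicate 3 differed in another way, since it held 97 of the 366 cells without a gate gene, against 4 to 42 in the other libraries. ZT14 replicate 1 held the deepest members, with a median of 24868.5 UMIs per cell where the median over libraries was 12684.5, and in its members the summed levels of resident macrophage genes (354 UMIs per 10000), class II genes (80.8) and inflammatory genes (97.1) were the lowest of the 18.

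Of the members, 609 held all 4 gate genes, 455 held 3 and 270 held 2. A Lyve1 UMI was detected in 93.9% of the members (1252 cells, 95% Clopper-Pearson interval 92.4 to 95.1), Fcna in 84.3% (82.3 to 86.2), Cd209f in 81.3% (79.1 to 83.3) and Timd4 in 66% (63.4 to 68.5). Background was read from 12124 fibroblasts (Pdgfra with Col1a1 and no Ptprc), in which 0.602% of cells held a Lyve1 UMI, 0.883% Fcna, 1.41% Cd209f and 0.181% Timd4, at a median depth of 22134 UMIs against 13344 in the members. In 88 T cells (median 7236 UMIs) none of the gate genes was found, and a count of 0 in 88 allows a share of up to 3.41% of such cells with a UMI at their lower depth (3 counts). These limits cover counting error only. Lyve1 with Fcna and Cd209f but without Timd4 was the most frequent incomplete combination (248 cells, 18.6% of the members), followed by Lyve1 with Fcna alone (107 cells) and by Lyve1, Fcna and Timd4 (106 cells). Fcna with Timd4 alone was seen in 4 cells.

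The level of each gate gene, in UMIs per 10000 UMIs of the members of a library, varied among the 18 libraries. Lyve1 ranged from 4.53 to 19.2 with a median of 9.90, Fcna from 3.00 to 17.9 with a median of 11.3, Cd209f from 9.96 to 20.3 with a median of 15.3, and Timd4 from 1.44 to 4.11 with a median of 2.36. The members just inside the threshold, with exactly 2 gate genes, held 4.66 ± 2.19 Lyve1, 1.63 ± 1.01 Fcna, 3.47 ± 1.82 Cd209f and 0.529 ± 0.567 Timd4 UMIs per 10000 (SD, n = 16 libraries with at least 5 such cells). Cells just outside it, with exactly 1, held 1.27 ± 0.975, 0.258 ± 0.244, 2.02 ± 1.59 and 0.208 ± 0.371.

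Some genes that the rule did not use followed the number of gate genes and others did not. Folr2, the folate receptor beta, was at 2.91 ± 1.27 UMIs per 10000 in cells with none (SD, n = 16 libraries), 9.17 ± 2.61 with 1, 14.9 ± 3.52 with 2, 22.5 ± 4.14 with 3 and 28.4 ± 4.19 with 4. The mannose receptor Mrc1 was at 15.1 ± 6.09 with none and 29.7 ± 5.77 with 1, and lay between 33.1 and 35.1 from 2 to 4 gate genes, so for Mrc1 the cells just outside the threshold were close to the members. The MHC class II chain H2-Ab1 went the other way, from 69.9 ± 23.4 with none to 48.6 ± 17.1 with 2 and 17.8 ± 13.7 with 4. The platelet factor Pf4 had a median of 13.2 over the libraries with none and medians between 26.8 and 29.9 from 1 to 4 gate genes, and Mgl2, a galactose-type lectin, was at a mean of 6.66 ± 5.25 with none and between 10.9 and 12.0 from 1 to 4. Depth was highest in the cells with all 4 gate genes and lowest in those with 1, since the median UMI number per cell was 11495.5, 9570, 11091.5, 11761 and 15419 for 0 to 4 gate genes.

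**Figure D1:**
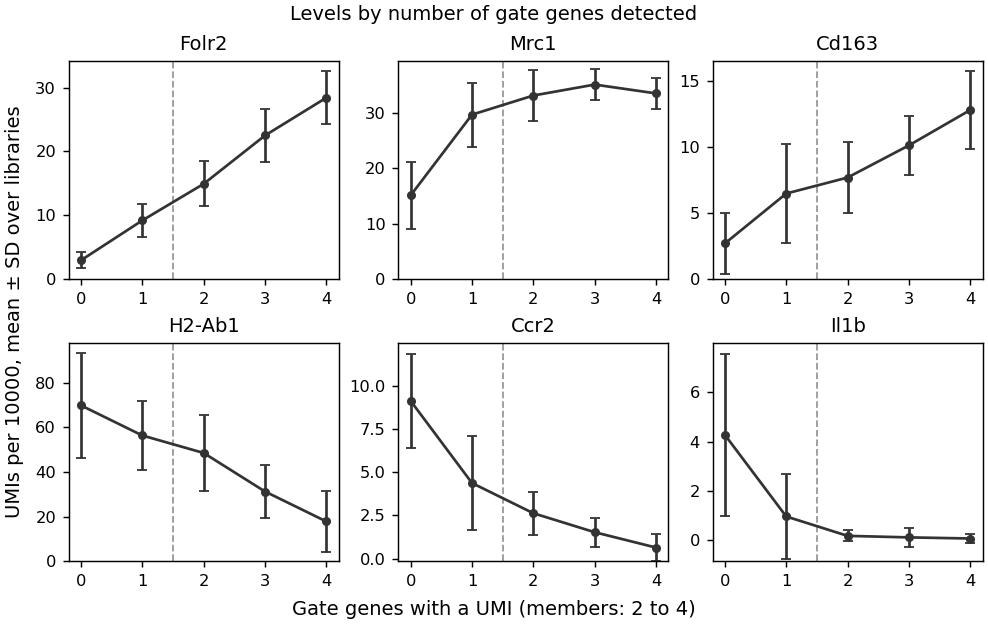
Levels of 6 genes outside the rule (y axis, UMIs per 10000, mean and SD over libraries with at least 5 cells) by the number of gate genes with a UMI in the cell (x axis), with the threshold for members as a dashed line. Folr2 climbs from 2.91 to 28.4 and Cd163 from 2.68 to 12.8, Mrc1 levels off from 1 gate gene on, and H2-Ab1, Ccr2 and Il1b are highest in cells with none.

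The label of the cells was set beside marker genes. The list of resident macrophage genes was chosen with results of these data in view, so its levels describe the cells and are no independent check. Of 29 genes known from perivascular-type resident macrophages, all were expressed in the members, and their summed level was 458 ± 36.5 UMIs per 10000 (SD, n = 18 libraries) with a range of 354 to 504. In cells with none of the gate genes it was 155 ± 55.7 (n = 12 libraries) with a range of 71.1 to 255, and the ranges do not overlap. Markers of lymphatic and blood endothelium, which could carry Lyve1, summed to 0.118 ± 0.0933 in the members, with Flt4, Mmrn1 and Emcn at 0 and Pdpn the most abundant. T and NK cell markers summed to 0.00380 ± 0.00681, with 6 of 9 at 0, Cd3e and Cd3g among them. B cell markers summed to 0.0936 ± 0.0495 (Ms4a1 at 0), mast cell markers to 0.0522 ± 0.0528 (Ms4a2 at 0) and keratinocyte markers to 0.0898 ± 0.0628 (none at 0, Krt10 the most abundant).

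Collagen and other fibroblast markers summed to 7.02 ± 2.82 UMIs per 10000 in the members (range 3.79 to 14.8, highest in ZT10 replicate 2, Col1a2 the most abundant), and to 11.6 ± 10.2 in cells with none of the gate genes. Muscle markers summed to 0.708 ± 0.509 in the members and to 1.18 ± 1.22 in the comparison class. Haemoglobin genes, which are near-identical copies, summed to 11.9 ± 18.9 in the members and were highest in ZT14 replicate 3 with 74.9, and in cells with none of the gate genes they summed to 4.28 ± 2.93. Dendritic and Langerhans cell markers summed to 2.89 ± 0.909, of which Cd209a gave 2.79, with Ccr7 and Il12b at 0. Neutrophil markers summed to 2.83 ± 1.30, of which Mmp9 gave 2.48. Monocyte markers summed to 3.87 ± 1.36 in the members and to 29.7 ± 14.9 in the comparison class, in which Ccr2 was the most abundant.

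Members were then compared with the cells with none of the gate genes over the genes outside the rule. The UMIs of each class were summed per library and tested in the 12 libraries with at least 10 cells of each (edgeR's quasi-likelihood test with the library as a block and Benjamini-Hochberg adjustment, threshold 0.05). The 6 libraries without enough cells of the comparison class were replicates 1 and 2 of ZT2 and of ZT18 and replicates 1 and 3 of ZT22. Of 5445 genes tested, 981 were higher in the members (18%) and 1004 were lower (18.4%), with a median log2 fold change of 0.01 over all genes. The groups did not overlap for 162 genes, 121 of them higher in the members. Without ZT14 replicate 1 there were 825 higher and 928 lower, and without ZT2 replicate 3 there were 830 higher and 869 lower.

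Depth differed between the classes as well. The median UMI number per cell, averaged over the 12 libraries, was 13538 ± 4068 (SD) in members and 11277 ± 2190 in cells with none of the gate genes, and the members were higher in 10 of 12 libraries (exact permutation test of the sign changes, two-sided, p = 0.00488). The median number of genes was 3281 ± 538 against 2719 ± 267, higher in 12 of 12 libraries (p = 0.000488 by the same exact test, the smallest it can give). The mitochondrial share was 3.18% ± 0.228 against 2.96% ± 0.624 (p = 0.172, exact). With every cell thinned to 5000 UMIs, which left out 111 members and 44 cells of the other class and kept 10 libraries, 575 genes were higher and 567 lower. Only the levels were thinned here, and each cell kept the class read at its full depth. Of the 1985 called genes, 1482 could be tested after thinning, 1480 of them had the same direction and 1070 were called again. With the class read from one part of a cell's UMIs and the levels from the other, 1447 could be tested, all 1447 kept their direction and 1226 were called again.

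Folr2 and Ltc4s were among the 12 genes with the smallest adjusted p that were higher in the members. Folr2 ranged from 15.9 to 30.6 UMIs per 10000 in the members of the 12 libraries, with a median of 23.4, and from 1.51 to 5.07 in the comparison class, with a median of 2.82. Every library of the members was above every library of the other class. The log2 fold change was 2.87 ± 0.16 (SE), with an adjusted p of 3.19e-11. Ltc4s, which makes leukotriene C4, was at 1.96 to 6.72 (median 4.41) against 0.0424 to 0.776 (median 0.249). Its log2 fold change was 3.76 ± 0.24 (adjusted p = 3.06e-10), again without overlap.

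Fcgrt, the heavy chain of the neonatal Fc receptor that recycles IgG and albumin, was at 10.4 ± 1.4 UMIs per 10000 in the members (SD, n = 12) and 1.68 ± 0.819 in the others, and Sulf2, an extracellular heparan sulfate 6-O-endosulfatase, was at 3.54 ± 0.322 against 0.573 ± 0.310. C6, a component of the membrane attack complex, was at 2.66 ± 0.744 against 0.118 ± 0.121, and the scavenger receptor Colec12 was at 1.68 ± 0.549 against 0.104 ± 0.0903. Each was higher in 12 of 12 libraries. The peptidase Enpep (2.28 ± 0.629 against 0.102 ± 0.108), the reticulocalbin Rcn3, the angiotensin receptor-associated protein Agtrap and the orphan receptor Gprc5b were also among the 12 genes with the smallest adjusted p. Gprc5b rests on 4 UMIs in the comparison class. The lectin Cd209g, at 5.35 ± 1.04 against 0.0528 ± 0.0713 (20 UMIs in all), had the highest log2 fold change of these, 6.58 ± 0.32, subject to the similarity of the Cd209 copies.

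Of the 29 resident macrophage genes, 27 rose, none fell and 2 did not pass the test, with a median log2 fold change of 1.81. Of all genes tested, 18% were higher and 18.4% lower. As above, the count for the list is not independent evidence. The transport protein Selenop was at 72.9 UMIs per 10000 in the members against 29.6 (log2 fold change 1.28 ± 0.14), the chemokine Ccl8 at 64.5 against 12.5 (2.82 ± 0.46), Mrc1 at 33.7 against 15.5 (1.11 ± 0.15) and the coagulation factor F13a1 at a log2 fold change of 1.69 ± 0.13. The haemoglobin scavenger receptor Cd163 (2.37 ± 0.29) and the endothelin receptor Ednrb (3.17 ± 0.27) rose too. Klf2 (0.17 ± 0.12, adjusted p = 0.27) and Klf4 (−0.05 ± 0.22, adjusted p = 0.90), both zinc finger factors, did not pass.

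General macrophage genes did not separate the classes in 1 direction. Of 19 tested, 6 rose, 5 fell and 8 did not pass, with a median of −0.10, beside 18% higher and 18.4% lower of all genes tested. Apoe, which carries lipids (0.96 ± 0.15), the growth factor receptor Csf1r (1.05 ± 0.11) and the phagocytic receptor Mertk (0.85 ± 0.14) were higher in the members. The lysozyme Lyz2 (−0.39 ± 0.09) and the endotoxin co-receptor Cd14 (−0.75 ± 0.14) were lower. Adgre1, which encodes F4/80, was at 4.76 in the members and 4.79 in the others (log2 fold change −0.10 ± 0.10, adjusted p = 0.48).

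Among 17 scavenger and endocytic receptors tested, 11 rose and 3 fell, with a median of 1.2, beside 18% higher and 18.4% lower of all genes. Stab1, a receptor for modified lipoproteins and dying cells, rose by 1.49 ± 0.18, the adaptor Dab2 by 1.2 ± 0.13 and the lysosomal Scarb2 by 1.15 ± 0.14, while Clec4a2, Clec4a3 and Lrp1 were lower. Cd36, at 7.81 against 6.51, did not pass (0.26 ± 0.16, adjusted p = 0.21). Of 11 complement genes, 8 rose and 1 fell, with a median of 0.66. C4b (12.7 against 1.28, log2 fold change 3.53 ± 0.28) and C2 (3.99 ± 0.37), of the classical pathway, rose together with Cfb (1.78 ± 0.24) and Cfp (0.91 ± 0.11) of the alternative pathway. C3 was lower (−1.33 ± 0.27), and C3ar1 and C5ar1 did not pass.

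Genes for the clearance of apoptotic cells moved in both directions, with 5 of 16 higher and 8 lower (median −0.26), where 18% and 18.4% of all genes were. The TAM receptor ligands Gas6 (2.07 ± 0.23) and Pros1 (2.07 ± 0.20) and their receptor Mertk were higher, whereas Axl, another TAM receptor, was at 0.156 UMIs per 10000 in the members and 0.999 in the others (−2.86 ± 0.24, lower in 12 of 12 libraries). Of 17 genes of iron and haem handling, 7 rose and 5 fell (median 0.20), against the same shares of all genes. Cp, the ferroxidase ceruloplasmin (3.00 ± 0.38), the transferrin receptor Tfrc (1.48 ± 0.23), the biliverdin reductase Blvrb (1.12 ± 0.12) and Hmox1, which degrades haem (0.51 ± 0.16), were higher. The ferritin chains Fth1 (−0.43 ± 0.13) and Ftl1 (−0.54 ± 0.08) were lower.

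Of 8 growth and trophic factors tested, 5 rose and 2 fell (median 1.05). Pdgfc, a ligand of the PDGF receptor alpha of fibroblasts, was at 1.36 against 0.194 (2.97 ± 0.26), and Igf1 (1.12 ± 0.25), Grn (0.99 ± 0.09) and Bmp2 (1.72 ± 0.39) rose. Gdf15 (−1.32 ± 0.28) and Tgfb1 (−0.37 ± 0.11) were lower. Interferon-stimulated genes gave 3 higher and 2 lower of 17, against 18% higher and 18.4% lower of all genes tested, so the list did not stand above the background. Ifi27l2a was among the 3 (1.09 ± 0.16).

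Of the genes that were lower in the members, Ccr2 had the smallest adjusted p. Ccr2, the chemokine receptor with which monocytes leave the marrow, ranged from 0.739 to 2.20 UMIs per 10000 in the members (median 1.47) and from 5.77 to 13.1 in the comparison class (median 9.36). No library of the members reached the lowest of the other class, and the log2 fold change was −2.85 ± 0.13 (adjusted p = 2.77e-12). Lyz1, the P-type lysozyme, was at 0.283 ± 0.326 against 7.03 ± 4.67, and Cd52, a small surface glycoprotein of leukocytes, at 1.75 ± 0.374 against 10.2 ± 4.20. The hyaluronan receptor Cd44 was at 1.18 ± 0.757 against 5.77 ± 2.69 and the actin-sequestering Tmsb10 at 2.22 ± 0.560 against 11.2 ± 5.38. Both were lower in 12 of 12 libraries. The adaptor Lat2, the survival gene Bcl2a1b, the class I gene H2-Q7, Lsp1, Irak2 and Traf1 completed the list of the 12, with the class II chain H2-Eb1. Bcl2a1b and H2-Q7 have near-identical copies and are uncertain.

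MHC class II genes were lower as a group, with 0 of 11 higher and 10 lower (median −1.32), beside 18% and 18.4% of all genes. The invariant chain Cd74 was at 92.4 UMIs per 10000 in the members and 176 in the others (−1.08 ± 0.10), H2-Aa at 44.4 against 91.5 (−1.21 ± 0.12), H2-Ab1 at 30.8 against 68.1 (−1.32 ± 0.12), and the class II transactivator Ciita at 0.343 against 0.918 (−1.65 ± 0.17). For H2-Eb1 the members ranged from 9.01 to 52.6 (median 24.1) and the comparison class from 35.0 to 122 (median 73.4). These ranges overlap, although the members were lower within each of the 12 libraries. Ifi30 did not pass (0.10 ± 0.15).

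Inflammatory genes were lower in 14 of 16 cases, with a median of −2.07. Il1b was at 0.103 against 4.44 UMIs per 10000 (−6.29 ± 0.52), its antagonist Il1rn at 0.233 against 2.07 (−3.33 ± 0.34), the neutrophil chemokine Cxcl2 at 7.78 against 36.6 (−2.58 ± 0.30) and Tnf at 0.326 against 1.38 (−2.22 ± 0.28). The mitochondrial superoxide dismutase Sod2 did not pass (−0.48 ± 0.19, adjusted p = 0.0529), and Retnla, an alternative activation gene, was higher in the members, at 168 against 71.7 (1.45 ± 0.32). Through Retnla the summed level of the list was higher in the members, 215 ± 59.1 (n = 18 libraries) against 171 ± 68.5 (n = 12), in contrast to its median. These are unlike sets of libraries. The 12 include all those of ZT14, where the members were at 130 ± 39.8, and the difference between the sums was not tested. Chemokines and their receptors gave 5 higher and 8 lower of 19 (median −0.66), beside 18% and 18.4% of all genes. Ccl8, Ccl24 and Ccl6 were higher, Ccl3, Ccl4, Cxcl2 and Cxcr4 lower, and Ccl2 (−0.65 ± 0.34) and Ccl7 (−0.07 ± 0.29) did not pass.

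Of 20 transcription factors of macrophages, 11 fell and 2 rose (median −0.49), beside 18.4% lower and 18% higher of all genes. Maf, linked to self-renewing tissue macrophages, was at 18.4 against 9.26 (0.97 ± 0.13) and Cebpd at 2.01 against 0.717 (1.37 ± 0.17), while Id2 (−2.57 ± 0.39), Cebpb (−1.18 ± 0.15) and Batf3 (−1.44 ± 0.21) were lower. Spi1 (−0.15 ± 0.11, adjusted p = 0.31) did not pass. Proliferation genes gave 4 lower and 0 higher of 7 tested (3 calls by DESeq2), and Mki67 and Top2a were too low to be tested.

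Immediate early and heat shock genes, which respond to tissue dissociation, moved with the class as well. None of 22 rose and 18 fell, with a median of −0.74, beside 18% higher and 18.4% lower of all genes tested. The summed level of the list was 219 ± 71.1 UMIs per 10000 in the members (n = 18) and 358 ± 68.9 in the comparison class (n = 12), again over unlike sets of libraries. The part of dissociation in the other differences was not tested. Of the 5 fibroblast markers tested none passed, with a median of −0.48, and all 4 haemoglobin genes also missed the threshold. By edgeR 2 fibroblast markers and 0 haemoglobin genes had an unadjusted p under 0.05, and DESeq2 called 0 of either list. Mmp9 (3.09 ± 0.29) and Cd209a (2.45 ± 0.32) were the only markers from the lists of other cell types that rose, and Ccr2, Fn1 (−3.71 ± 0.42) and Lyz1 of the monocyte list fell.

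**Figure D2:**
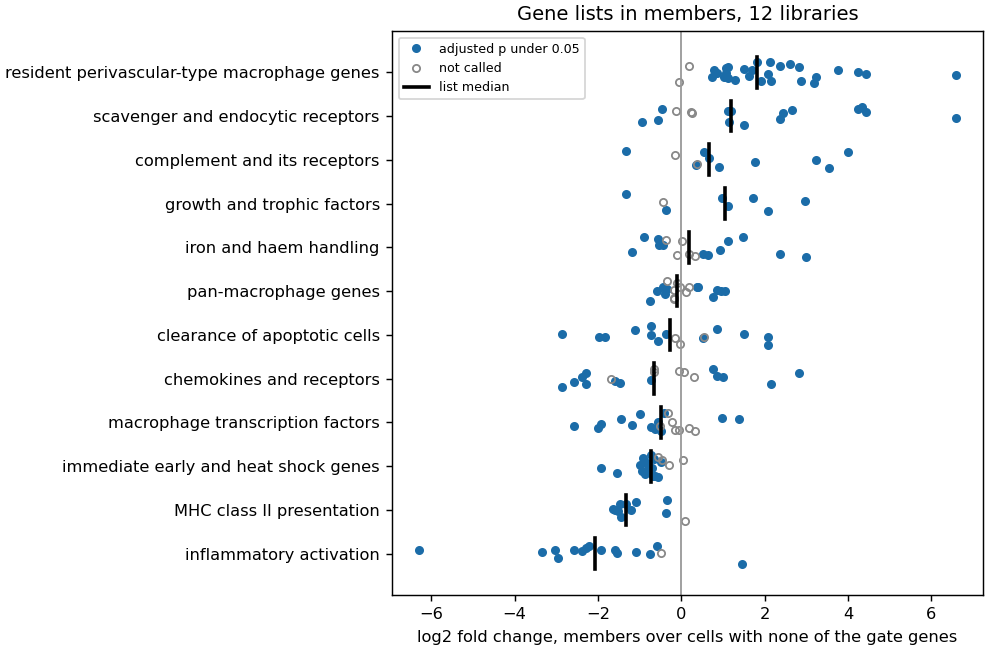
Log2 fold change of members over cells with none of the gate genes (x axis) for every tested gene of 12 lists (y axis), with called genes filled, others open, and the list median as a bar. The resident macrophage list has its median at 1.81 with 27 of 29 genes called higher, and the inflammatory list at −2.07 with 14 of 16 called lower. Of all genes tested, 18% were called higher and 18.4% lower.

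The members were not uniform. Of the 1334 members, 880 held a Timd4 UMI and 454 did not, and the share with Timd4 ranged from 47.0% (ZT14 replicate 1) to 78.5% (ZT10 replicate 1) of the members of a library, with a median of 63.7%. Timd4 is itself a gate gene, so this split also follows the number of gate genes. Of the 880 members with Timd4, 609 held all 4, while those without it held at most 3. Timd4 and the number of gate genes were not separated in this comparison. The cells with Timd4 were deeper, with a median of 14022.5 UMIs against 11614. In the 16 libraries with at least 10 cells of each, 142 of 5376 genes were higher in the members with Timd4 (2.64%) and 275 were lower (5.12%), by edgeR's quasi-likelihood test with the library as a block and Benjamini-Hochberg adjustment. With levels thinned to 5000 UMIs and Timd4 still read at full depth, 65 genes were higher and 147 lower. Of the 417 called genes 294 could be tested after thinning, all 294 kept their direction and 176 were called again.

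Of 17 scavenger and endocytic receptors 4 were higher in the members with Timd4 and none was lower (median 0.16), and of 11 complement genes 3 were higher and none was lower (median 0.05), beside 2.64% higher and 5.12% lower of all genes. Colec12, the scavenger receptor, was at 1.62 to 3.38 UMIs per 10000 with Timd4 (median 2.22) and 0.428 to 2.12 without (median 0.737). The ranges overlap, but the level was higher with Timd4 in 16 of 16 libraries, by a log2 fold change of 1.51 ± 0.12 (adjusted p = 1.3e-09). C2 was at 1.05 ± 0.336 against 0.242 ± 0.177 (2.31 ± 0.20), C6 at 3.38 ± 0.723 against 1.71 ± 0.682 (0.96 ± 0.10) and C4b at 14.9 ± 1.85 against 9.26 ± 2.55 (0.70 ± 0.08). Slc40a1, the iron exporter ferroportin, was at 0.580 ± 0.314 against 0.185 ± 0.105 (1.47 ± 0.19), higher in 14 of 16 libraries. The calcium-binding Cpne8 (2.07 ± 0.24), the TAM ligand Pros1 (0.63 ± 0.07), Ifi27l2a, Wfdc17, the lysosomal acetyltransferase Hgsnat and the matrix protein Ecm1 were also higher.

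The members without Timd4 held more MHC class II and Ly6a. Ly6a, the surface antigen Sca-1, was at 3.23 ± 2.40 UMIs per 10000 without Timd4 and 0.808 ± 0.699 with it (−2.13 ± 0.18), and Tmsb10 at 3.18 ± 0.709 against 1.54 ± 0.464 (−1.09 ± 0.09). Both were lower with Timd4 in 16 of 16 libraries. H2-Ab1 was at 10.5 to 66.6 without Timd4 (median 40.5) and 7.52 to 46.9 with it (median 18.3), a log2 fold change of −0.98 ± 0.10, lower in 15 of 16 libraries. H2-Aa (−0.95 ± 0.10), H2-Eb1 (−1.01 ± 0.11), Cd74 (−0.76 ± 0.08) and H2-DMa (−0.77 ± 0.10) went the same way, so that 8 of 11 class II genes were lower and none higher (median −0.76). Of all genes tested, 5.12% were lower and 2.64% higher. Ccr2 was at 0.826 ± 0.738 with Timd4 and 2.35 ± 1.11 without (−1.79 ± 0.26). Vim (−0.73 ± 0.08), the kinase Pim1, the cell cycle inhibitor Cdkn1a (−1.12 ± 0.15) and Ifrd1 were also lower.

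Of the 29 resident macrophage genes, 12 were higher with Timd4, none was lower and 17 did not pass (median 0.19). Of all genes tested, 2.64% were higher and 5.12% lower. The inflammatory list gave 6 lower and 1 higher of 12 (median −0.72). Immediate early and heat shock genes were lower in 15 of 22 cases and higher in none (median −0.44), beside 5.12% and 2.64% of all genes. The part of this list in these differences was not tested. The median over all genes tested was −0.00. No clock gene passed of 9 tested (median −0.01), nor did the 5 fibroblast markers (median −0.23). At an unadjusted p under 0.05 these were 1 and 2 genes by edgeR, and DESeq2 called 0 of either list.

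**Figure D3:**
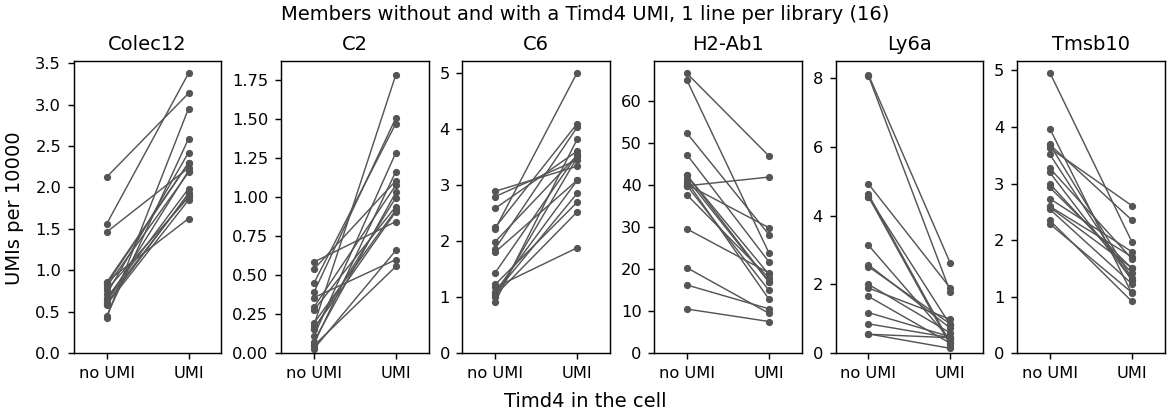
Levels (y axis, UMIs per 10000) of 6 genes in members without and with a Timd4 UMI (x axis), with 1 line for each of 16 libraries. Colec12, C2 and C6 are higher with Timd4 in 16 of 16 libraries, while Ly6a and Tmsb10 are lower in 16 and H2-Ab1 in 15.

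The share of members among C1q-positive cells was then followed over the day. It ranged from 45.3% (ZT2 replicate 3, 95% Clopper-Pearson interval 38.5 to 52.2) to 90.6% (ZT22 replicate 1, 86.2 to 94.0), with a median of 71.8%. By time it was 73.3% ± 24.5 at ZT2, 64.8% ± 12.5 at ZT6, 70.6% ± 2.47 at ZT10, 61.1% ± 2.68 at ZT14, 72.6% ± 5.72 at ZT18 and 79.3% ± 9.77 at ZT22 (SD, n = 3 libraries each). At ZT2 the 3 libraries were at 83.9%, 90.6% and 45.3%, a wider spread than between the means of the times. A 24 h cosine took a share of 0.151 of the variance (permutation test with 100000 draws, p = 0.294, adjusted p = 0.542 over 2 measures), and differences between the 6 times were not detectable either (permutation, adjusted p = 0.542). Without ZT2 replicate 3, the cosine took 0.413 (permutation, adjusted p = 0.0231), so the outcome of this test depends on that library. With 3 of the 4 gate genes required, the cosine took 0.337 (permutation, adjusted p = 0.0949). In cells thinned to 5000 UMIs, with the gate genes counted after thinning, the share ranged from 42.7% to 87.1% (permutation, adjusted p = 0.283). Members made up 3.54% to 17.9% of all cells that passed the filter, with a median of 7.64%. Recovery in dissociation and cell number in the tissue cannot be told apart in these shares.

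**Figure D4:**
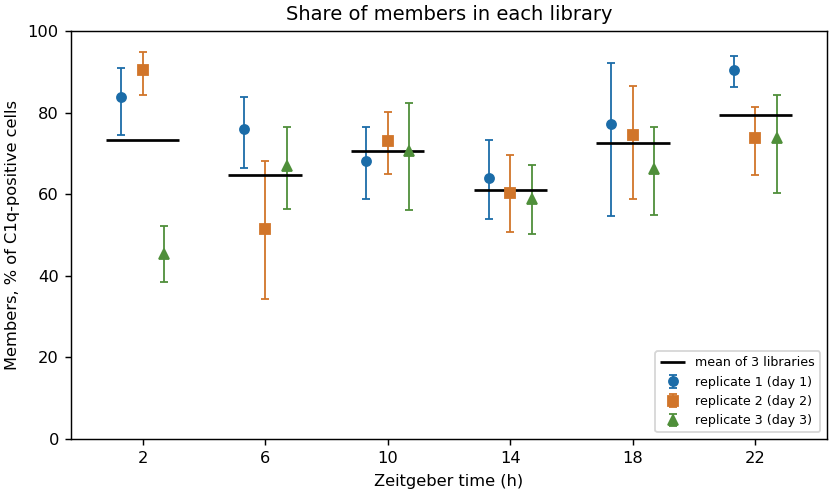
Share of members among the C1q-positive cells of each library (y axis, %) against zeitgeber time (x axis, h), with 95% Clopper-Pearson intervals, symbols for the 3 replicates and bars for the mean. ZT2 replicate 3, at 45.3%, lies far below the other ZT2 libraries, and the 3 libraries of ZT14 lie between 58.9% and 64.1%.

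Within the members, 24 h rhythms were tested on the summed counts of all 18 libraries with a 24 h sine and cosine (edgeR's quasi-likelihood test, Benjamini-Hochberg adjustment). Of 7900 genes, 91 passed (1.15%), and 1046 had an unadjusted p under 0.05. Of the 19 clock genes listed 15 could be tested, and 8 of them passed. DESeq2 called 7 of the 15. The count of 91 varied with the libraries used, from 32 without ZT14 replicate 3 to 137 without ZT14 replicate 1, and 29 of the 91 genes passed whichever library was left out. Arntl, Nr1d1, Nr1d2, Dbp, Tef, Per3, Cry1 and Tspan4 belong to these 29.

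Arntl, which encodes BMAL1, was highest around lights on. Its level in the members was 0.441 ± 0.105 UMIs per 10000 at ZT2, 0.299 ± 0.177 at ZT6, 0.0311 ± 0.00837 at ZT10, 0.0818 ± 0.0508 at ZT14, 0.263 ± 0.109 at ZT18 and 0.458 ± 0.0502 at ZT22 (SD, n = 3 each). The 3 libraries of ZT10 were below all those of ZT2, ZT6, ZT18 and ZT22. The fitted peak was at ZT23.7 with a log2 amplitude (from the fitted mean to the peak) of 1.53 and an adjusted p of 2.26e-05.

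Of the known targets of BMAL1, Dbp, Nr1d1 and Nr1d2 peaked late in the light phase and Tef just after it. Dbp, a PAR bZIP activator that binds D-box motifs, was at 0.110 ± 0.00895 at ZT2, 0.716 ± 0.261 at ZT6, 1.79 ± 0.149 at ZT10, 1.21 ± 0.731 at ZT14, 0.185 ± 0.0748 at ZT18 and 0.114 ± 0.0647 at ZT22. At ZT14 its libraries spread from 0.522 to 1.98. Its log2 amplitude was 2.19 (adjusted p = 6.87e-08, peak ZT10.8). The repressor Nr1d2 rose from 0.0888 ± 0.0180 at ZT22 to 1.07 ± 0.291 at ZT10 and had the smallest adjusted p of all genes (4.05e-09, peak ZT9.8, log2 amplitude 1.66). Its paralog Nr1d1, or REV-ERB alpha, was at 1.04 ± 0.227 at ZT10 and 0.0762 ± 0.0813 at ZT18 (adjusted p = 0.000161, peak ZT9.3). Tef, the relative of Dbp, peaked at ZT12.3 with a log2 amplitude of 1.33.

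The Period and Cryptochrome genes that passed, also targets of BMAL1, peaked in the dark phase. Per3 peaked at ZT12.3 (adjusted p = 0.000367, log2 amplitude 1.05), Per2 at ZT15.2 (0.00544, 1.62) and Cry1 at ZT17.3 (0.0110, 1.2). Per2 and Cry1 rest on 260 and 209 UMIs over all members, and Per2 missed the threshold without ZT14 replicate 3 (adjusted p = 0.0530). Per1 (adjusted p = 0.129), Clock (0.178), Cry2 (0.102), Nfil3 (0.1), Bhlhe41 (0.246), Ciart (0.819) and Rora (0.883) did not pass, and Npas2, Hlf and Bhlhe40 were among those too low for the test.

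**Figure D5:**
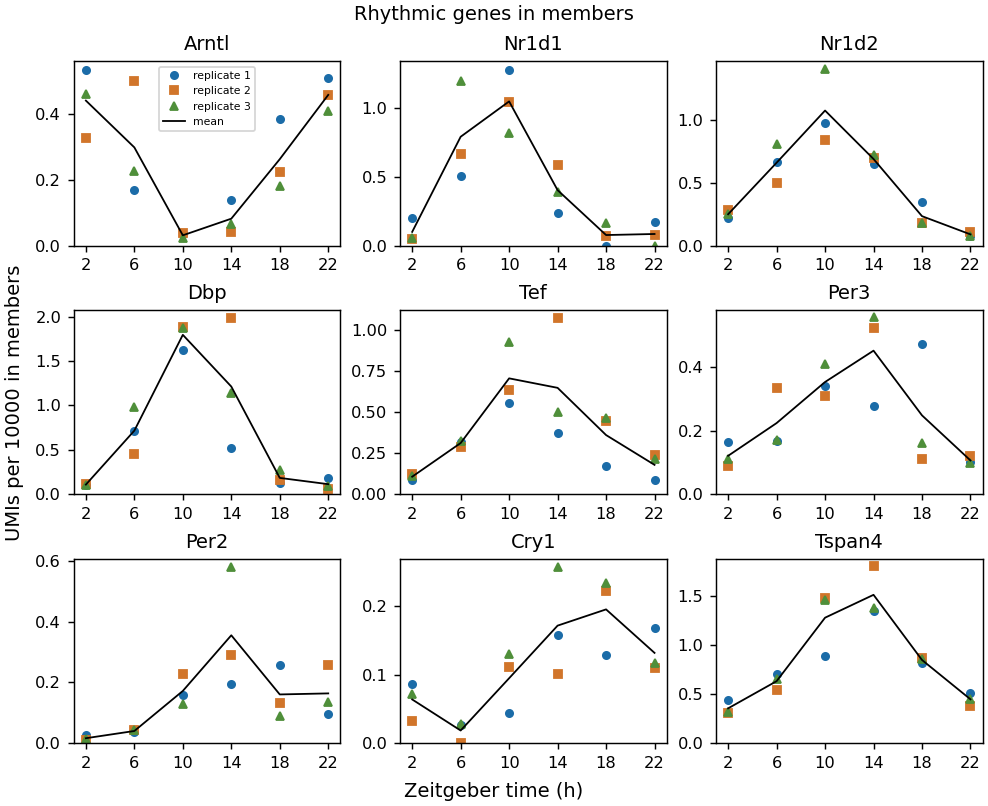
Levels in the members (y axis, UMIs per 10000) of 8 rhythmic clock genes and Tspan4 against zeitgeber time (x axis, h), with 1 symbol per library and a line through the means of 3 libraries. Arntl is lowest at ZT10, when Dbp, Nr1d1 and Nr1d2 are highest, and Per2 and Cry1 have their highest means at ZT14 and ZT18.

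Promoter sequences are shown for 3 of these genes that hold the letters bound by clock factors. The windows run from 250 bases before to 50 bases after the gene start in RefSeq on GRCm38.p6 and are written 5′ to 3′ on the strand of the gene, with the motif in capitals. The E-box was searched as CACGTG, which reads the same on both strands, and the D-box as TTATGNAA on both strands, where N is any base. The motifs do not share letters with each other. The windows of Tef and Cry1 shown hold 1 E-box each (a further Tef window, not shown, holds another), and that of Per3 holds the D-box at 2 places.
Tef promoter (chr15:81802423-81802722, plus strand): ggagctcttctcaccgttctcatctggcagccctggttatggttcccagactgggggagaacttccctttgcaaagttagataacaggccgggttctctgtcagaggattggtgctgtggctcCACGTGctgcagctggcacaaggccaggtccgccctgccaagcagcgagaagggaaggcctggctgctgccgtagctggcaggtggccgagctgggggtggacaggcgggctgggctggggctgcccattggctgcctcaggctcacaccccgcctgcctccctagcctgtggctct
Cry1 promoter (chr10:85185005-85185304, minus strand): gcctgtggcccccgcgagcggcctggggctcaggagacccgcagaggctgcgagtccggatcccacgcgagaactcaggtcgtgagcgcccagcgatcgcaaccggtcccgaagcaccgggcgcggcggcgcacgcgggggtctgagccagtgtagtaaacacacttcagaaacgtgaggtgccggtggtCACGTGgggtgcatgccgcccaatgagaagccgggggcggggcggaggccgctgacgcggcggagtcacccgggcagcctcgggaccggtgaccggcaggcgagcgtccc
Per3 promoter (chr4:151044616-151044915, minus strand): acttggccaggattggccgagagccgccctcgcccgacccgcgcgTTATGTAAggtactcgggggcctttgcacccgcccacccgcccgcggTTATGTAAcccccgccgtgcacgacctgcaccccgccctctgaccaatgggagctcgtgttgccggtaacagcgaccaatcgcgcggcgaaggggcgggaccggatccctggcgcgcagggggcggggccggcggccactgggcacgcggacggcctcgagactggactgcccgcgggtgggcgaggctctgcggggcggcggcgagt
The first motif begins 127 bases before the start in Tef, 60 bases before it in Cry1 and 205 bases before it in Per3. A promoter entry was found for 72 of the 91 rhythmic genes, and 10 of these (13.9%) held an E-box in a window, against 13% of the 6373 tested genes with an entry and 7.15% of all 32851 windows. The D-box was in 2 of the 72 (2.78%, Per3 and Jdp2), against 2.39% of the tested genes and 3.38% of all windows. A match describes letters in this window and is not a measured binding site.

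Genes outside the clock list were rhythmic too. Tspan4, a tetraspanin, was at 0.355 ± 0.0742 UMIs per 10000 at ZT2, 1.28 ± 0.338 at ZT10, 1.51 ± 0.255 at ZT14 and 0.447 ± 0.0687 at ZT22 (adjusted p = 6.87e-08, peak ZT12.8, log2 amplitude 1.06). Its lowest library at ZT14 was above the highest at ZT2, ZT6, ZT18 and ZT22. Abcg1, which exports cholesterol, peaked at ZT12.1 with a level of 0.801 ± 0.137 at ZT10 and 0.324 ± 0.127 at ZT2 (adjusted p = 0.000367). Mmp9, the gelatinase that is also higher in the members than in the comparison class, peaked at ZT2.5. It was at 3.55 ± 1.00 at ZT2, 3.70 ± 1.19 at ZT6 and 0.737 ± 0.333 at ZT14 (adjusted p = 0.000948, log2 amplitude 1.09). Avpi1 (peak ZT8.7), Tppp3 (peak ZT14.5) and Cmtm7 (peak ZT23.4) completed the 12 genes with the smallest adjusted p.

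Peaks were spread unevenly over the day. Of the 91 genes, 31 peaked from ZT3 to ZT9, 32 from ZT9 to ZT15, 7 from ZT15 to ZT21 and 21 from ZT21 to ZT3, and the median log2 amplitude was 0.55. Of the functional lists, growth factors gave 2 rhythmic genes of 10 (Pdgfc, peak ZT16.5, and Pdgfa, peak ZT7.7), clearance of apoptotic cells 2 of 17 (Abcg1 and Cd300a), complement 1 of 14 (C5ar1, peak ZT9.8) and the immediate early and heat shock list 1 of 22 (Hspd1). DESeq2 called 1, 3, 1 and 1 genes of these lists, in the same order. None of 29 resident macrophage genes, 12 class II genes, 15 inflammatory genes, 19 chemokine genes, 18 scavenger receptors, 18 genes of iron handling, 22 transcription factors, 18 interferon-stimulated genes, 19 general macrophage genes or 9 proliferation genes passed. With 1.15% of all genes passing, lists of this size are too short for a count of 0 to set them apart. At an unadjusted p under 0.05 they gave 4, 0, 4, 5, 3, 4, 4, 8, 3 and 2 genes by edgeR, and DESeq2 called 1, 0, 0, 0, 2, 1, 0, 0, 1 and 0. C6, a complement component that is not in the complement list, also passed (adjusted p = 0.0380, peak ZT0.6). The summed immediate early and heat shock level of the members was 161 ± 15.2 UMIs per 10000 at ZT2, 255 ± 59.9 at ZT6, 298 ± 101 at ZT10, 190 ± 54.8 at ZT14, 193 ± 82.4 at ZT18 and 217 ± 19.9 at ZT22. Its highest mean was at ZT10 and its lowest at ZT2, both in the light phase, and the sums were not tested between times. The part of this list in the rhythms of other genes was not tested.

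Lyve1 is 1 of the 91, and its call is not read as a result, since it is a gene of the rule. It also left the count without any 1 of the ZT6 libraries or ZT18 replicate 2, and with at least 20 cells required per library (edgeR, adjusted p = 0.105). As a description, its level in the members was 9.62 ± 2.31 UMIs per 10000 at ZT2, 5.51 ± 0.356 at ZT6, 8.69 ± 3.88 at ZT10, 13.9 ± 4.63 at ZT14, 16.3 ± 4.51 at ZT18 and 10.1 ± 1.29 at ZT22 (SD, n = 3 each). The 3 libraries of ZT6 lay below all others except ZT10 replicate 3. Over all C1q-positive cells, which were chosen without the gate genes, the test for rhythm gave adjusted p of 0.129 for Lyve1, 0.442 for Cd209f, 0.652 for Timd4 and 0.683 for Fcna (edgeR), and none passed.

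The comparison class offered less to a test of rhythm. In its 12 libraries, 0 of 3762 genes passed (0.00%) by edgeR's quasi-likelihood test, with 121 at an unadjusted p under 0.05, and DESeq2 also gave 0. At ZT2, ZT18 and ZT22 it had 1 library each. Nr1d2 was at 0.489 UMIs per 10000 at ZT6, 0.804 at ZT10 and 0.290 at ZT14 in these cells, with an unadjusted p of 0.0058, and Nr1d1 was at 0.574 at ZT10 and 0.177 at ZT14 (unadjusted p = 0.0109). The difference in rhythm between the classes was tested directly, and 0 of 5445 genes passed (0.00%), with 171 at an unadjusted p under 0.05 by edgeR and 0 calls by DESeq2. This does not show that the rhythms of the classes were alike. Over all C1q-positive cells in place of the members, an alternative chosen after seeing the data, 21 genes passed, and 19 of them were among the 91, which is 90.5% of the former list and 20.9% of the latter.

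Of the 91 rhythmic genes, 78 were also tested between the classes. There 18 were higher in the members and 33 lower, beside 18% and 18.4% of all genes tested. The rhythmic clock genes Dbp (log2 fold change 1.41 ± 0.22), Nr1d1 (0.94 ± 0.28), Nr1d2 (0.48 ± 0.19) and Tef (0.96 ± 0.22) were higher in the members. Per1 (−0.82 ± 0.14) and Nfil3 (−2.48 ± 0.36), which represses D-box genes, were lower, but neither had passed the test for rhythm. Of the 9 clock genes tested between the classes, 4 were thus higher, 2 lower and 3 not called (median 0.35). DESeq2 called 5 of the 9.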

How the data were processed

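The authors processed the reads with Cell Ranger 3.1.0 against mm10 (per the labels and methods) and deposited, for each library, raw UMI counts per gene (32285 genes) and barcode of 10x Chromium 3′ libraries. Members and gene lists were chosen with earlier results of these data known. Barcodes were filtered as in the study, and the classes follow from UMI counts of the 8 rule genes. UMIs were summed per class and library (at least 10 cells of each class) and tested with edgeR 4.0.16 (R 4.3.3) after TMM scaling and filterByExpr: glmQLFTest with the library as a block between classes, and with 24 h cosine and sine terms over zeitgeber time. For rhythm in the members all 18 libraries were used. Calls had a Benjamini-Hochberg adjusted p under 0.05 over all genes tested. Named genes are the 12 with the smallest adjusted p in each direction that moved alike in at least 80% of libraries (for rhythms, the 12 smallest) and members of the lists. Levels are UMIs per 10000 UMIs of a class in a library, not per length, so they are compared between cells. Between genes they serve only to name the marker of a list with the most UMIs. Shares were tested by permuting the libraries (scipy 1.17.1). Intervals and limits for a count of 0 (3 counts) cover counting error only, and p-values measure the spread between the mice sampled. Doublets were not removed for the results given; Scrublet (scanpy 1.11.5) at its own threshold marked 75 cells, 0.444% of those that passed, so removing the highest scores at a rate set by barcode number served as the alternative. The scripts were tested on simulated data. Summed libraries held 232938 to 2908701 UMIs in the members. Some genes of the lists and of the named genes count in the totals but are not reported here.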

Additional observations from a re-analysis of the deposited data

How the results depend on the processing

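No named gene reversed its direction under the alternatives run, but of the 1482 genes called between the classes that could be tested in thinned cells, 2 did. In all tests of genes in thinned cells, rhythm included, the cells kept the class read at full depth. Between the classes, the balance of 981 genes higher to 1004 lower turned to 1015 and 973 with DESeq2, 1008 and 983 with RLE size factors, 1542 and 1232 with no filter on low counts, 575 and 567 in cells thinned to 5000 UMIs, and 1168 and 1104 with all libraries. Leaving out 1 library gave 825 to 1014 higher and 869 to 1073 lower. Between members with and without Timd4, higher genes became 280 with no filter, thinning gave 65 higher and 147 lower, and leaving out 1 library gave 101 to 155 higher and 219 to 288 lower.

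Rhythm in the members was the least stable count. The 91 genes became 193 with DESeq2, 519 with no filter, 31 in thinned cells, 41 with 3 of the 4 gate genes required and 21 over all C1q-positive cells. Leaving out 1 library gave 32 (ZT14 replicate 3) to 137 (ZT14 replicate 1), and the count moved by over 1.5 times also without ZT2 replicate 1 (44), ZT2 replicate 2 (42), ZT10 replicate 2 (42), ZT14 replicate 2 (56), ZT18 replicate 2 (47), ZT18 replicate 3 (53) and ZT22 replicate 3 (50). The cause was not tested, except that fewer libraries or fewer UMIs enter most of these fits. Among named rhythmic genes outside the rule, edgeR's adjusted p passed 0.05 over all C1q-positive cells for Abcg1 (0.152), Cmtm7 (0.150) and Cry1 (0.164). In thinned cells it did so for Per3 (0.0582) and Cmtm7 (0.0610). With no filter, rhythm in the comparison class gave 101 genes and the difference between classes 38, against 0 each, and leaving out 1 library gave 0 to 1 gene for the difference, the 1 without ZT2 replicate 3.

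For the share of members, the cosine took 0.0835 to 0.413 of the variance and the 6 times 0.194 to 0.650 when 1 library was left out, the highest without ZT2 replicate 3 (adjusted p = 0.0231 for each, permutation).

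The replicate numbers are successive days. Deviations of libraries with the same number correlated at a median of 0.0647 over 45 pairs (−0.363 to 0.333), against −0.0238 over 90 pairs with different numbers. With the replicate block, 89 genes were rhythmic in the members, 76 of them among the 91, and 0 in the comparison class or for the difference. The block changed no call of a named gene.

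Alternatives chosen after seeing the data were all C1q-positive cells in place of members, all libraries with a cell of each class, and leaving out the 2 libraries that share barcodes. Without those 2 libraries, 69 genes were rhythmic in the members. The shallowest library, ZT18 replicate 1, held 17 members, and without it 77 genes were rhythmic.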
